A study of Canis lupus familiaris with 11 samples.

Results

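Claudins are small membrane proteins that form the strands of the tight junction, the seal near the apex of epithelial cells. Their outer loops meet those of claudins on the neighbouring cell. Some members make narrow pores that let chosen ions pass between cells and others tighten the barrier, so the mixture of claudins sets what leaks through an epithelial sheet. The 9 members described here are CLDN1, CLDN2, CLDN3, CLDN4, CLDN7, CLDN8, CLDN10, CLDN12 and CLDN16. They were chosen by symbol from a table of 26178 genes, and all 9 were found in it. The gene name column named 8 of them, and CLDN3 was identified through the protein match in its description.

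RNA was sequenced from MDCKII cells, a dog kidney epithelial line, and from LMNA knockout (KO) cells derived from them. LMNA encodes lamins A and C, filament proteins of the nuclear envelope. The groups were LMNA KO cells compressed laterally and left for 2 h of recovery (3 libraries), LMNA KO control cells (2), wild-type (WT) cells compressed and recovered in the same way (3), and WT control cells (3). Cells of every group had first grown for 3 to 4 d in serum-containing medium. The series asks what lateral compression does to an epithelium and what part lamin A has in it. Groups were taken from the titles of the samples, since the series' own design note names other time points. The labels do not say how compression was applied, or whether controls had sham handling or a recovery period. Compression therefore cannot be told apart from handling and time. Whether the KO cells are 1 clone is not stated either, so loss of LMNA cannot be told apart from a difference between clones. The labels also do not say that replicates are separate cultures. Every p-value below is therefore set by how far these samples scatter, and that scatter may be technical only.

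The libraries held 10420214 to 17999623 counts. LMNA stood at 35.5, 25.5 and 43.6 counts per 1000000 counts (CPM, scaled by edgeR's TMM method) in KO compressed cells and 38.5 and 51.8 CPM in KO control cells, against 841, 829 and 751 CPM in WT compressed cells and 679, 1208 and 933 CPM in WT control cells. All 8 markers listed for kidney epithelium were measured, with a summed level of 3475 to 5512 CPM per library. The summed level was 2.98 to 17.9 CPM for 9 fibroblast and smooth muscle markers, 0.0877 to 4.33 CPM for 6 endothelial markers and 2.00 to 5.88 CPM for 6 immune markers, and LUM, DCN, PTPRC and CD3E were at 0 in all libraries. KO compressed replicate 2 and WT compressed replicate 3 lay farthest out on the first principal component and held reads for the fewest genes, 14101 and 14218, against 15109 to 15925 in the other libraries. Called claudin differences, and the compression differences of CLDN3, CLDN4 and CLDN7, are given with and without these 2 libraries where they enter the comparison.

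Per length, claudin RNA was dominated by CLDN7, CLDN4 and CLDN3, which are adhesion and barrier claudins. Levels of different genes are compared here per length, as FPKM (fragments per kilobase and per 1000000 fragments). In WT control cells CLDN7 averaged 690 ± 219 FPKM, CLDN4 250 ± 67.5 FPKM and CLDN3 91.5 ± 34.6 FPKM (SD, n = 3). CLDN1 followed at 59.5 ± 6.32 FPKM, CLDN12 at 35.5 ± 6.15 FPKM, CLDN16 at 31.9 ± 1.89 FPKM and CLDN2 at 1.32 ± 0.42 FPKM. In this order the ranges of CLDN3 and CLDN1 overlapped, as did those of CLDN12 and CLDN16, and the other neighbours down to CLDN2 did not overlap. The gene lengths used for CLDN4, CLDN7 and CLDN12 are 633, 636 and 735 bases, against 4070 for CLDN1, 5281 for CLDN2 and 3367 for CLDN16. The short lengths are all multiples of 3, as a coding sequence alone would be. Whether these models hold untranslated regions was not checked. How far gene length sets the per-length levels of the short models was not tested. In CPM, which is not divided by length, the order differed, and CLDN1 was above CLDN4 and CLDN3 in every library. In WT compressed cells CLDN1 was also above CLDN7, at 416, 377 and 431 CPM against 356, 358 and 246 CPM. In bulk RNA, fewer cells that express a gene and less RNA per cell cannot be told apart.

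The rank of CLDN7 and CLDN4 was the same in every group and the middle ranks were not. CLDN7 averaged 515 ± 146 FPKM in KO compressed cells, 651 ± 28.3 FPKM in KO control cells and 494 ± 97.9 FPKM in WT compressed cells (SD, n = 3, 2 and 3). CLDN1 took the third place by mean in both compressed groups, at 100.3 ± 20.1 FPKM in KO cells and 98.6 ± 7.00 FPKM in WT cells. In both groups its range overlapped that of CLDN4. In KO compressed cells its range, 86.8 to 123 FPKM, also overlapped that of CLDN3, 26.6 to 106 FPKM. CLDN2 was seventh in all 4 groups. The summed FPKM of the 9 claudins averaged 957 ± 248 in KO compressed, 1153 ± 63.4 in KO control, 889 ± 162 in WT compressed and 1159 ± 317 in WT control cells. A two-sided exact permutation test between single groups could not decide whether the sum differed. The smallest p that 3 or fewer libraries a group allow is 0.1, so no difference could have passed. The p-values for compression were 0.3 in WT cells and 0.5 in KO cells. For KO against WT they were 0.9 in controls and 0.6 in compressed cells. Over both treatments the smallest p allowed is 0.005. There the mean log2 sum was 0.058 higher in KO than in WT cells, with an exact permutation p of 0.73.

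**Figure D1:**
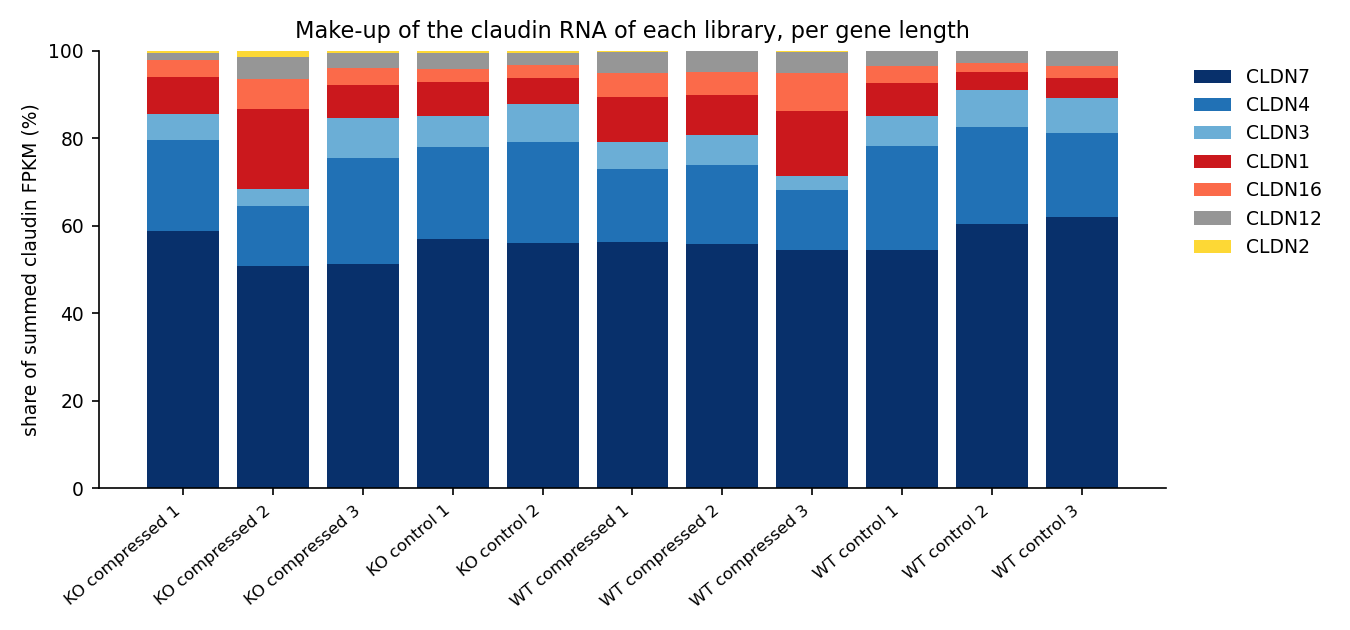
Share of each claudin in the summed claudin FPKM (vertical axis, percent) in each of 11 libraries, ordered by group; each bar is 1 library and each colour 1 gene, with CLDN8 and CLDN10 too small to see. CLDN3, CLDN4 and CLDN7 (blue) together make 68.5% of the sum in KO compressed replicate 2 and 71.3% in WT compressed replicate 3, and up to 91.0% in the other libraries.

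CLDN2, the pore claudin that lets small cations and water pass between cells of leaky kidney epithelium, was about 4 times higher in LMNA KO cells than in WT cells, with and without compression. CLDN2 reached 27.3, 44.5 and 29.9 CPM in KO compressed cells and 30.0 and 31.6 CPM in KO control cells. The WT compressed libraries had 9.46, 7.54 and 7.87 CPM and the WT control libraries 4.49, 8.72 and 7.76 CPM. Every KO library was above every WT library, and KO compressed replicate 1, with the fewest CLDN2 reads among them, held 366. Such a separation with KO above WT was found for 16.9% of all genes tested between the controls and for 7.92% between the compressed groups. KO control cells averaged 30.8 ± 1.13 CPM and WT control cells 6.99 ± 2.22 CPM, a fold of 4.38 (95% interval 2.85 to 6.73) and a log2 fold change of 2.13 ± 0.29 (SE), with an edgeR quasi-likelihood adjusted p of 0.00598. KO compressed cells averaged 33.9 ± 9.25 CPM and WT compressed cells 8.29 ± 1.03 CPM, a fold of 4.08 (2.73 to 6.10) and a log2 fold change of 2.03 ± 0.27, with an edgeR adjusted p of 0.00252.

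CLDN2 was the 1 claudin called of 7 tested in each of these comparisons, at an adjusted p under 0.05 over 13560 genes. Of all genes tested, 0.339% were called between the controls, 0.133% as higher in KO cells, and 0.789% between the compressed groups, 0.509% as higher. The difference between compressed groups stayed called without any 1 of the 11 libraries, with log2 fold changes of 1.78 to 2.16, and without both libraries that lay apart, at 1.77 with an edgeR adjusted p of 0.0118. The difference between controls rests on 2 KO libraries. Its edgeR adjusted p was 0.0692 without KO control replicate 1 and 0.0980 without KO control replicate 2, with log2 fold changes of 2.17 and 2.09.

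Compression was not seen to move CLDN2 in either genotype. The compressed to control log2 fold change was 0.14 ± 0.28 in KO cells (95% interval -0.47 to 0.75) and 0.24 ± 0.27 in WT cells (-0.34 to 0.82), and the edgeR adjusted p was 0.916 and 0.552. The interaction, which is the compression effect in KO cells minus that in WT cells, was -0.10 ± 0.39 with an edgeR adjusted p of 0.976. As a share of the summed claudin FPKM, CLDN2 made 0.476 to 1.21% in KO compressed and 0.490 to 0.504% in KO control cells, against 0.142 to 0.210% in WT compressed and 0.0995 to 0.126% in WT control cells. The mean share was 0.468 percentage points higher in KO cells, in all 5 KO libraries above all 6 WT libraries, with a two-sided exact permutation p of 0.005 within treatment, the smallest that 200 rearrangements allow, and 0.03 after Benjamini-Hochberg adjustment over 6 tests of summed levels and shares. The share is built from the same CLDN2 values that separated the genotypes above, so this test adds no independent result. CLDN2 was a small part of the claudin RNA in KO cells.

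**Figure D2:**
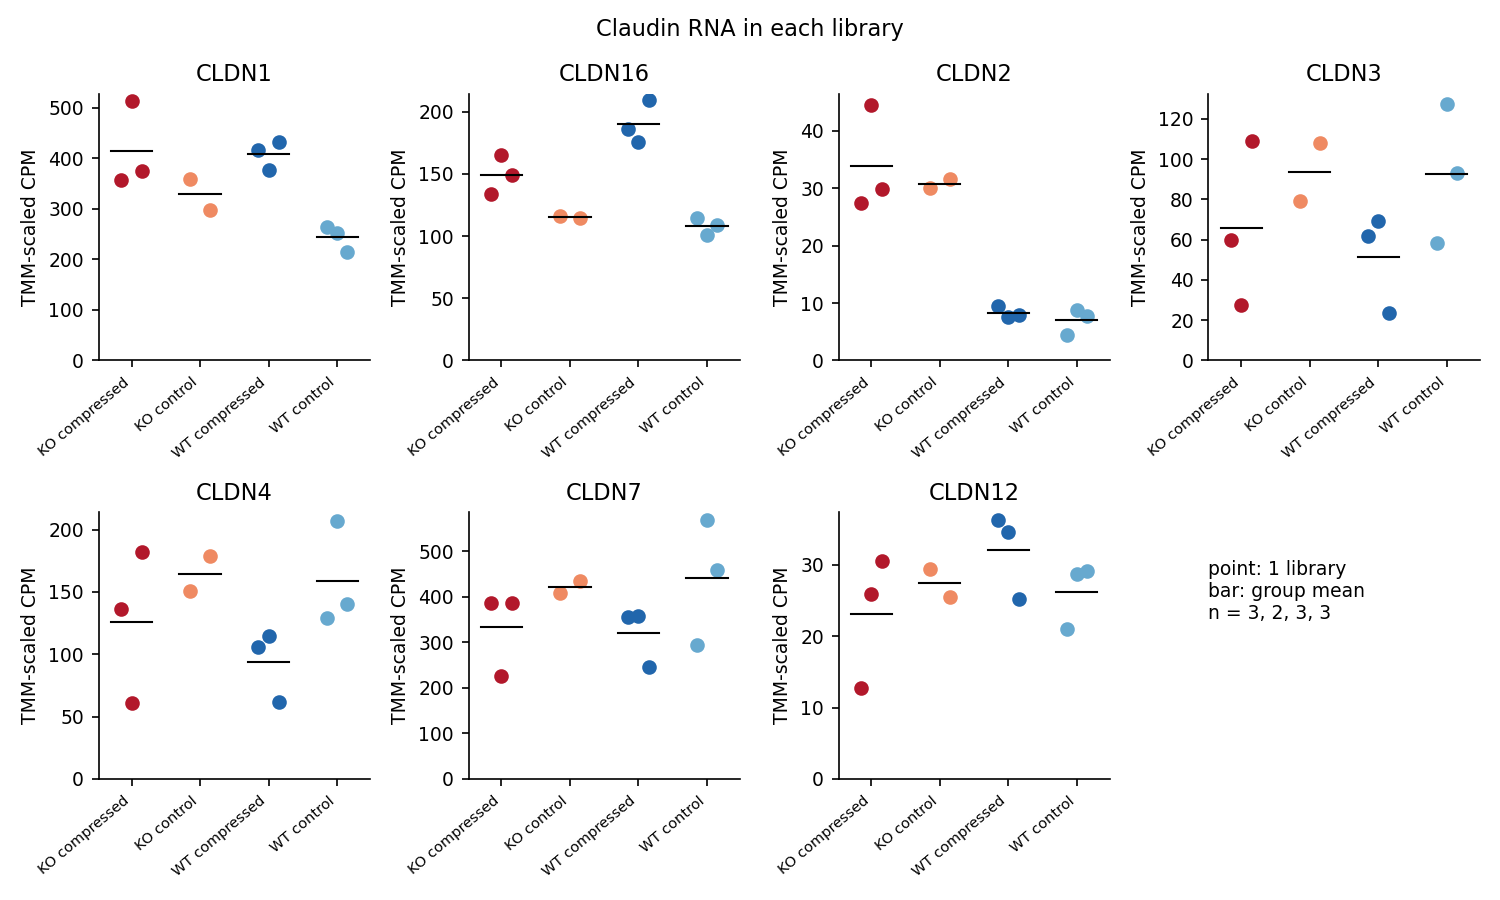
TMM-scaled CPM (vertical axis, starting at 0) of the 7 claudins that passed the filter, by group; each point is 1 library and each bar the group mean (n = 3, 2, 3 and 3). CLDN2 is at 27.3 CPM or more in all KO libraries and at 9.46 CPM or less in all WT libraries, and CLDN16 is at 176 to 209 CPM in WT compressed cells, above all other libraries.

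CLDN2 lies on chromosome X of CanFam3.1, from 80456159 to 80489644 on the plus strand. Its model overlaps that of RIPPLY1, a repressor of transcription, by 5246 bases on the minus strand, and no source used here says whether the counting used strand, so reads of the shared bases cannot be told apart. RIPPLY1 was counted at 136, 31 and 48 reads in KO compressed and 30 and 62 reads in KO control cells, against 3, 1 and 13 reads in WT compressed and 39, 7 and 4 reads in WT control cells. RIPPLY1 did not pass the test in either genotype comparison, with log2 fold changes of 3.34 ± 0.99 (edgeR adjusted p 0.176) between compressed groups and 1.03 ± 0.96 (0.867) between controls. Summed over libraries, CLDN2 was counted at 1356 reads in the KO compressed group and 290 in the WT compressed group, and RIPPLY1 at 215 and 17 reads. The part of RIPPLY1 in the CLDN2 counts was not tested.

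Of the 8 other genes tested within 1 Mb of CLDN2, RNF128 was the only one called between KO and WT cells. Of all genes tested, 0.339% were called between controls and 0.789% between compressed groups. Between controls 7 of the 8 had a log2 fold change above 0, with a median of 0.76. Between compressed groups 5 had, with a median of 0.16. The median over all genes tested was -0.01 in both comparisons. RNF128 encodes an E3 ubiquitin ligase, and its midpoint lies 146 kb from that of CLDN2. It is named because it was called, after its values were seen. It stood at 87.7, 136 and 88.0 CPM in KO compressed and 81.5 and 73.0 CPM in KO control cells, against 18.9, 16.1 and 21.4 CPM in WT compressed and 14.9, 13.7 and 14.2 CPM in WT control cells. The log2 fold changes were 2.46 ± 0.20 between compressed groups and 2.44 ± 0.22 between controls, with edgeR adjusted p-values of 8.39e-05 and 0.000203, and both calls held without any 1 of the 11 libraries. TBC1D8B, which lies between the 2 genes, had log2 fold changes of 0.29 ± 0.26 and 0.79 ± 0.28 and was not called. MORC4, on the other side of CLDN2, had -0.07 ± 0.28 and 0.64 ± 0.31 and was not called.

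**Figure D3:**
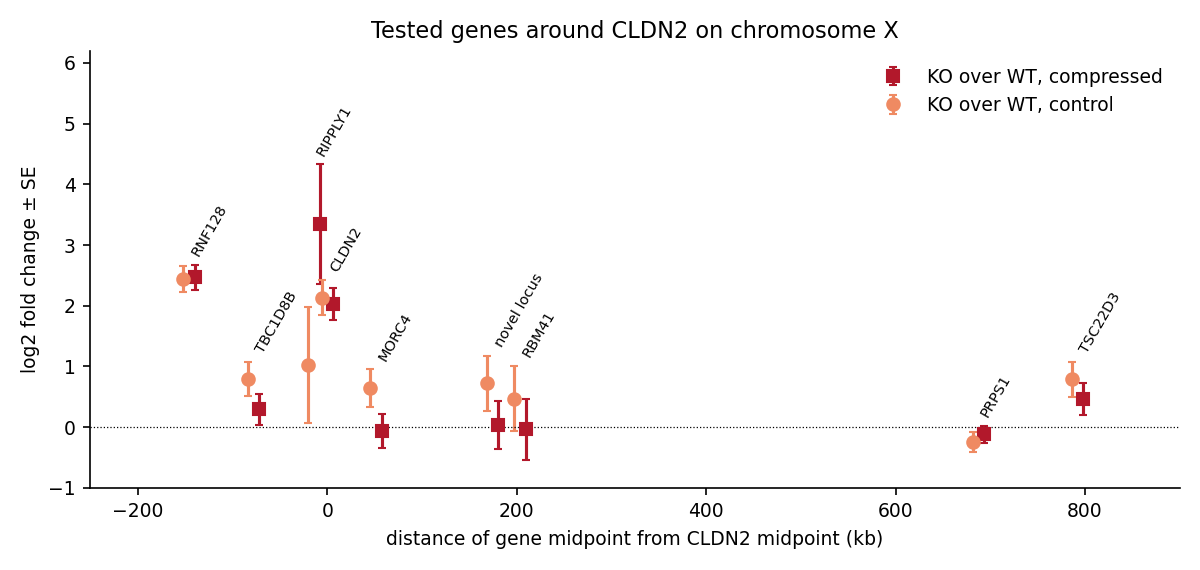
KO over WT log2 fold change (vertical axis, with its SE) of CLDN2 and the 8 other tested genes within 1 Mb, against the distance of each gene's midpoint from that of CLDN2 in kb (points are set slightly apart so that both comparisons show). RNF128 lies at 2.46 and 2.44 and CLDN2 at 2.03 and 2.13 in compressed and control cells, RIPPLY1 has the widest errors, and the other 6 genes lie between -0.25 and 0.79.

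CLDN10, whose isoforms form cation or anion pores in the kidney tubule, and CLDN8, a barrier claudin of the distal nephron, were close to absent. CLDN10 was counted at 2, 8 and 6 reads in KO compressed and 0 and 1 reads in KO control cells, against 0 in each WT compressed library and 2, 0 and 0 reads in WT control cells. CLDN8 was counted at 0, 4 and 0 reads in KO compressed and 1 and 1 reads in KO control cells, against 0 in each WT compressed library and 0, 1 and 0 reads in WT control cells. Over all 11 libraries this makes 19 reads of CLDN10 and 7 of CLDN8, and neither passed the filter on low counts. For the WT compressed group, 0 of 35055502 counts allows a level of up to 0.0856 CPM by counting error alone.

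CLDN1 and CLDN16 were higher after compression in WT cells. CLDN1 is a barrier claudin without which the epidermis loses water, and CLDN16 is needed for magnesium and calcium reabsorption in the thick ascending limb of the kidney. CLDN1 stood at 416, 377 and 431 CPM in WT compressed cells and at 263, 252 and 215 CPM in WT control cells. CLDN16 stood at 186, 176 and 209 CPM in WT compressed cells and at 115, 101 and 109 CPM in WT control cells. For both genes the 2 groups did not overlap, as for 21.2% of all genes tested in that direction. CLDN1 averaged 408 ± 27.8 against 243 ± 25.0 CPM, a fold of 1.68 (95% interval 1.32 to 2.14) and a log2 fold change of 0.75 ± 0.16, and CLDN16 averaged 190 ± 17.2 against 108 ± 6.90 CPM, a fold of 1.76 (1.43 to 2.17) and 0.82 ± 0.14. The edgeR adjusted p was 0.041 for each.

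These 2 of 7 tested claudins were the ones called for compression in WT cells, where 6.25% of all genes tested were called, 3.85% as higher and 2.4% as lower. An adjusted p of 0.041 is the smallest that any gene reached in this comparison, and the calls were lost together when libraries were left out. For both genes the edgeR adjusted p became 0.132, 0.0501 and 0.184 when replicates 1, 2 and 3 of the WT compressed group were left out in turn. It was 0.101 for CLDN1 and 0.0843 for CLDN16 without WT control replicate 2, and 0.119 and 0.118 without WT control replicate 3. It was 0.0760 for both without KO control replicate 1 and 0.0765 for both without KO control replicate 2. The log2 fold changes over all 11 such fits were 0.66 to 0.81 for CLDN1 and 0.74 to 0.87 for CLDN16. Without the 2 libraries that lay apart they were 0.71 and 0.74, and both were called.

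In KO cells the same 2 genes were not called. CLDN1 stood at 357, 513 and 376 CPM in KO compressed cells and at 360 and 297 CPM in KO control cells, and the groups overlapped. CLDN16 stood at 134, 165 and 149 CPM in KO compressed cells and at 116 and 114 CPM in KO control cells, without overlap, as for 13.5% of all genes tested in that direction. The log2 fold changes were 0.34 ± 0.18 for CLDN1 and 0.37 ± 0.16 for CLDN16 (unadjusted p of 0.0854 and 0.0313), each with an edgeR adjusted p of 0.773, and 0 of 13560 genes (0%) were called for compression in KO cells. At an unadjusted p under 0.05, 828 genes passed in edgeR, and DESeq2 called 1 gene after adjustment.

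A smaller effect of compression in KO cells was not shown by the test of the difference itself. The interaction was -0.41 ± 0.24 for CLDN1 and -0.44 ± 0.21 for CLDN16, with unadjusted p-values of 0.115 and 0.0515 in edgeR and an adjusted p of 0.939 for both. Of all genes tested, 0 were called for the interaction in edgeR and 0 in DESeq2, and 650 had an unadjusted p under 0.05 in edgeR. Between genotypes, CLDN1 differed by 0.02 ± 0.16 in compressed cells and by 0.43 ± 0.18 in controls, and CLDN16 by -0.35 ± 0.14 and 0.09 ± 0.15, none of which was called (edgeR adjusted p of 0.969, 0.584, 0.336 and 0.946). CLDN16 was lower in all KO compressed than in all WT compressed libraries, as for 7.82% of all genes tested, and CLDN1 was higher in both KO control than in all WT control libraries, as for 16.9% of all genes tested.

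**Figure D4:**
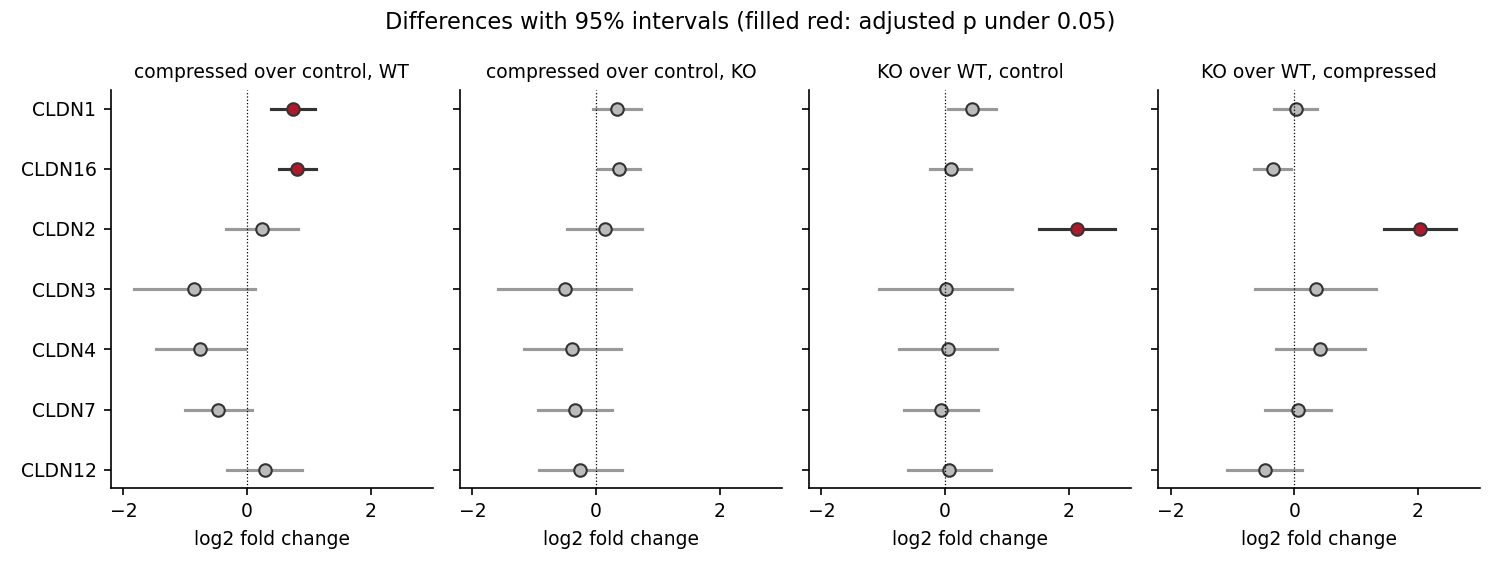
Log2 fold changes with 95% intervals of the 7 tested claudins in 4 comparisons, from the edgeR fit over all 11 libraries; red points are called at an adjusted p under 0.05 and grey points are not. CLDN1 and CLDN16 are called for compression in WT cells (0.75 and 0.82), CLDN2 in both KO to WT comparisons (2.13 and 2.03), and none for compression in KO cells.

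CLDN1 and CLDN16 are neighbours on chromosome 34. CLDN1 runs from 22302592 to 22319496 on the minus strand and CLDN16 from 22340103 to 22414249 on the plus strand, with 2 loci that the authors assembled themselves between them. Of the 5 other genes tested within 1 Mb of CLDN1, the 1 called for compression in WT cells was CLDN16 itself, the call given above. Of all genes tested, 6.25% were called. The median log2 fold change of the 5, CLDN16 among them, was 0.53, against -0.02 over all genes tested. So few genes give no result about the region. Over the 11 libraries the log2 levels of CLDN1 and CLDN16 moved together (Pearson's r = 0.823, Spearman's rho = 0.918, permutation p of 0.0121 and 0.00283 after adjustment over 21 pairs of claudins). Leaving out the 2 libraries farthest from the median of CLDN1 gave r = 0.761, and within groups r was 0.674. The permutations shuffled libraries across the 4 groups, so these p-values also take in differences between groups. FEZ2 followed CLDN1 more closely (r = 0.984), so the relation is not particular to this pair.

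CLDN3, CLDN4 and CLDN7, the most abundant claudins per length in control cells, were called in none of the comparisons. CLDN3 and CLDN4 tighten the barrier in many epithelia and are the receptors of a clostridial enterotoxin, and CLDN7 also lies along the lateral membrane with EPCAM. CLDN4 stood at 136, 60.6 and 182 CPM in KO compressed and 150 and 179 CPM in KO control cells, against 106, 115 and 62.0 CPM in WT compressed and 129, 207 and 140 CPM in WT control cells. The WT compressed libraries were all below the WT control libraries, as for 20.8% of all genes tested in that direction, and the KO groups overlapped.

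CLDN3 stood at 60.03, 27.5 and 109 CPM in KO compressed and 78.9 and 108 CPM in KO control cells, against 61.8, 69.2 and 23.3 CPM in WT compressed and 58.1, 127 and 93.0 CPM in WT control cells. CLDN7 stood at 386, 226 and 388 CPM in KO compressed and 408 and 435 CPM in KO control cells, against 356, 358 and 246 CPM in WT compressed and 295, 569 and 458 CPM in WT control cells. CLDN3 overlapped between groups in all 4 comparisons, and CLDN7 was without overlap only between the KO groups, lower in compressed cells, as for 14% of all genes tested. KO compressed replicate 2 and WT compressed replicate 3 were the lowest of their groups for all 3 genes.

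The compressed to control log2 fold changes in WT cells were -0.75 ± 0.33 for CLDN4, -0.85 ± 0.46 for CLDN3 and -0.46 ± 0.25 for CLDN7, with edgeR adjusted p-values of 0.14, 0.214 and 0.217. In KO cells they were -0.38 ± 0.37, -0.51 ± 0.50 and -0.34 ± 0.28, with edgeR adjusted p-values of 0.825, 0.827 and 0.798. These KO values rested on single libraries. Without KO compressed replicate 2 they were -0.050, -0.14 and -0.12, and without KO compressed replicate 3 they were -0.74, -1.09 and -0.46. CLDN4 in WT cells passed the test in 1 of 11 fits that left out a library, without KO compressed replicate 2 (edgeR adjusted p 0.0369). Without both libraries that lay apart the values were -0.033, -0.13 and -0.11 in KO cells and -0.52, -0.50 and -0.30 in WT cells, and none passed. Between genotypes the differences were -0.07 to 0.05 in controls and 0.06 to 0.42 in compressed cells, and the 95% intervals for CLDN3, -1.07 to 1.09 in controls, show how wide these estimates are.

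The 3 genes moved together over the libraries. Pearson's r was 0.969 for CLDN3 with CLDN4 (rho = 0.909, adjusted permutation p of 0.00084 and 0.00283), 0.925 for CLDN3 with CLDN7 (rho = 0.900, 0.00115 and 0.00283) and 0.902 for CLDN4 with CLDN7 (rho = 0.891, 0.00231 and 0.00283). Without the 2 libraries farthest from the median of the first gene these were 0.882, 0.816 and 0.710, and within groups 0.959, 0.901 and 0.882. Permutation p-values of all claudin pairs also take in differences between groups. Other genes followed CLDN3, CLDN4 and CLDN7 more closely, at r up to 0.979, 0.986 and 0.989. CLDN1 and CLDN16 had negative correlations with all 3, with r of -0.67 to -0.76 and rho of -0.58 to -0.78 over the 6 pairs. The adjusted permutation p of r was 0.0218 to 0.0494, but that of rho was 0.14 for CLDN1 with CLDN3 and 0.095 for CLDN3 with CLDN16. Without the 2 libraries farthest from the median of the first gene, r ran from -0.72 for CLDN1 with CLDN4 to -0.48 for CLDN3 with CLDN16, and it was -0.53 for CLDN7 with CLDN16. CLDN3 and CLDN4 are neighbours on chromosome 6 (6534229 to 6535237 on the plus strand and 6493513 to 6494145 on the minus strand), while CLDN7 is on chromosome 5 (32224210 to 32225795, minus strand). CLDN7 lies wholly within the span of ACADVL, a mitochondrial fatty acid dehydrogenase gene on the opposite strand. Whether the counting used strand is not given, and shared exons were not checked. The part of ACADVL in the CLDN7 counts was not tested. ACADVL had a log2 fold change of -0.65 ± 0.21 for compression in WT cells (edgeR adjusted p 0.0702).

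A measure of the whole libraries was set beside these genes, and its relation to them was not tested. For each library, the deviation of every gene from its mean was ranked against the number of genes within 1 Mb of it. This rank correlation ran from -0.373 in KO compressed replicate 2 to 0.43 in WT control replicate 2, and it was -0.373 to 0.125 in KO compressed, 0.174 to 0.278 in KO control, -0.332 to -0.161 in WT compressed and 0.058 to 0.43 in WT control libraries. CLDN7 has 123 genes within 1 Mb, more than 99.4% of the genes tested, CLDN3 has 47 and CLDN4 46, against a median of 30. CLDN2 has 24, CLDN1 15, CLDN16 14 and CLDN12 8.

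In a fit that corrected each library for this count of neighbouring genes, the compression log2 fold changes in WT cells were -0.64 for CLDN3, -0.55 for CLDN4 and 0.11 for CLDN7, so that CLDN7 turned its sign. In the same fit CLDN1 and CLDN16 were at 0.59 and 0.66 and both called, with edgeR adjusted p-values of 0.0473 and 0.0418. CLDN2 was at 2.07 in both KO to WT comparisons and called. For compression in WT cells, tested neighbours within 1 Mb had a median of -0.50 around CLDN7 (89 genes). It was -0.44 around CLDN3 (35 genes) and -0.46 around CLDN4 (34 genes), whose windows overlap. Around CLDN12, which has only 8 genes within 1 Mb, the median was also low, at -0.59 (6 tested genes). It was 0.53 around CLDN1 and around CLDN16 (5 genes each) and 0.37 around CLDN2 (8 genes). Over all genes tested it was -0.02. The correction was drawn from these same libraries, and its measure differed between WT control and WT compressed cells. An effect of compression and a difference between libraries therefore cannot be told apart here, and neither was tested as a cause.

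**Figure D5:**
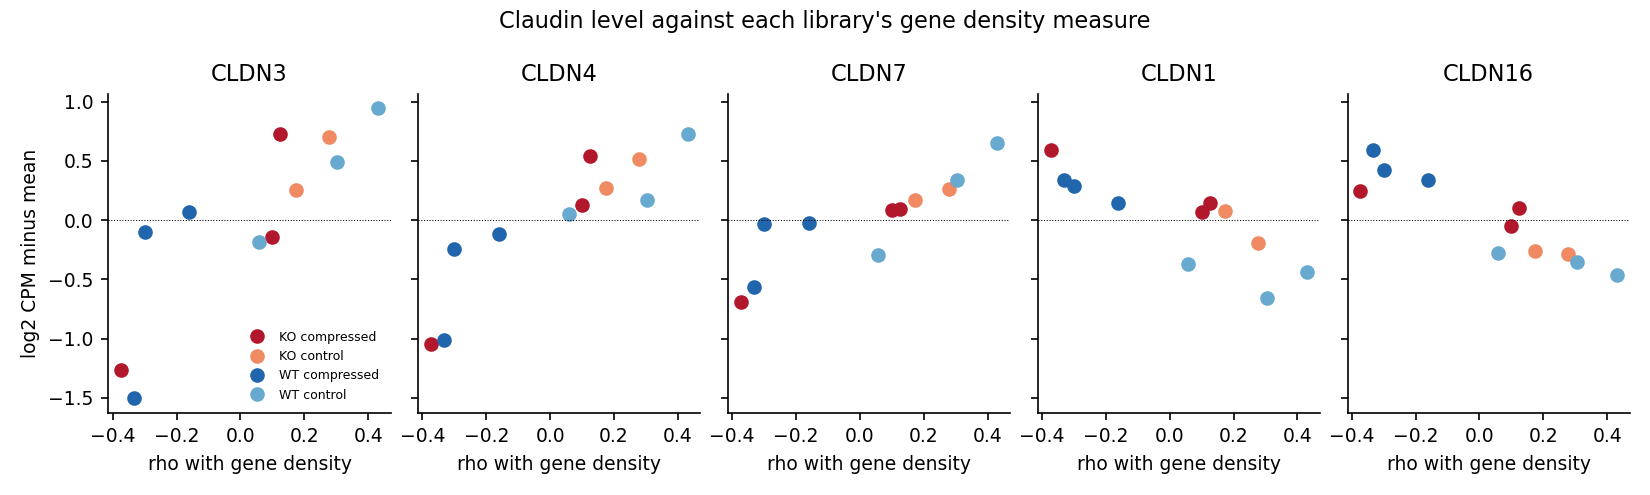
Log2 CPM minus the mean over 11 libraries (vertical axis) of 5 claudins against each library's rank correlation with local gene density (horizontal axis); each point is 1 library, coloured by group. KO compressed replicate 2 and WT compressed replicate 3, at -0.373 and -0.332, are lowest for CLDN3, CLDN4 and CLDN7.

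CLDN12, a claudin linked to calcium passage in mouse gut and kidney, showed no call in any comparison. CLDN12 stood at 12.7, 26.0 and 30.5 CPM in KO compressed and 29.4 and 25.5 CPM in KO control cells, against 36.2, 34.6 and 25.2 CPM in WT compressed and 21.0, 28.6 and 29.1 CPM in WT control cells. The lowest value was that of KO compressed replicate 1, and the groups overlapped in all 4 comparisons. The compressed to control log2 fold change was -0.25 ± 0.31 in KO cells and 0.29 ± 0.28 in WT cells, and the edgeR adjusted p was 0.851 and 0.493.

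The genes whose log2 levels followed each claudin most closely over the 11 libraries are given as a description, since all share the same libraries. FAM115C (r = 0.982) and UPK3B (0.981), a urothelial plaque protein, were nearest to CLDN2, followed by RNF128 (0.969). FEZ2 (0.984) and GATAD1 (0.978) were nearest to CLDN1, and FAM45A (0.963) and DNAJC7 (0.959) to CLDN16. ELF3, an epithelial transcription factor, and ATF6B (both 0.979) were nearest to CLDN3, SLC16A5 (0.986) and ADAM15 (0.984) to CLDN4, GIPC1 (0.989) and FANCE (0.985) to CLDN7, and KCTD20 (0.955) and GLIS3 (0.947) to CLDN12.

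The partners of claudins in the junction, among them occludin, the ZO scaffold proteins and the polarity complexes, gave 1 call, a share near that of all genes and so no result about the list. Of 36 genes listed, 29 were tested. For compression in WT cells 1 was higher and 0 lower, against 3.85% of all genes tested higher and 2.4% lower, with a median log2 fold change of -0.17 against -0.02 over all genes tested. The gene was EPCAM, an adhesion protein that binds CLDN7 and also stands among the epithelial markers. EPCAM stood at 607, 528 and 671 CPM in WT compressed cells and at 404, 383 and 408 CPM in WT control cells. Its log2 fold change was 0.60 ± 0.15 with an edgeR adjusted p of 0.0448, and it was lost in the same 7 fits without a library as CLDN1 (0.0513 to 0.192), and without the 2 libraries that lay apart (0.0673). It was also lost in both limma fits on FPKM (0.0632 and 0.0675) and with the gene density correction (0.0787). In KO cells EPCAM stood at 707, 754 and 517 CPM after compression and 497 and 487 CPM in controls, a log2 fold change of 0.42 ± 0.17 that was not called. In the other comparisons none of the 29 was called in edgeR.

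Among genes known to control claudins, such as transcription factors, kinases and proteases, 34 of 38 listed were tested. For compression in WT cells 1 was higher and 4 were lower, beside 3.85% and 2.4% of all genes tested, with a median log2 fold change of -0.24 against -0.02 over all genes. SNAI1, a repressor of claudin genes in mouse and human epithelia, stood at 3.92, 4.15 and 5.25 CPM in WT compressed cells and at 17.9, 11.5 and 15.2 CPM in WT control cells, a log2 fold change of -1.74 ± 0.28. EPHA2, a receptor kinase that phosphorylates CLDN4, stood at 157, 203 and 211 CPM in WT compressed cells and at 554, 469 and 500 CPM in WT control cells, a log2 fold change of -1.41 ± 0.24. Both had an edgeR adjusted p of 0.041. For both genes the WT groups did not overlap, as for 20.8% of all genes tested in that direction.

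The splicing factor ESRP2 (-0.93 ± 0.23) and the ubiquitin ligase LNX1 (-1.25 ± 0.31) were lower in WT compressed cells, each with an edgeR adjusted p of 0.0435. SNAI2, a repressor related to SNAI1, was higher by 0.69 ± 0.18 (edgeR adjusted p 0.0471), so the 2 related repressors ran in opposite directions. SNAI2 is named here after its values were seen. Without 1 library in turn, the calls of SNAI1, EPHA2 and ESRP2 held in 4 of 11 fits and those of LNX1 and SNAI2 in 3 of 11, with adjusted p-values up to 0.199. All 5 calls were lost in both limma fits on FPKM (0.0540 to 0.0675). SNAI2 was also lost by library size alone (0.0569), without the 2 libraries that lay apart (0.0639) and with the gene density correction (0.0968), where ESRP2 was lost too (0.0583). In KO cells none was called, and SNAI1 had a compressed to control log2 fold change of -0.72 ± 0.29 and EPHA2 of -1.01 ± 0.27.

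Between genotypes 2 regulators were called, both transcription factors. Between controls 0 of 34 were higher and 1 was lower, beside 0.133% and 0.206% of all genes tested. Between compressed groups 1 was higher and 1 lower, beside 0.509% and 0.28% of all genes tested. GATA4 had 0 reads in all 5 KO libraries, against 42, 26 and 41 reads in WT compressed and 37, 62 and 62 reads in WT control cells. With a floor of 3 counts over the group, GATA4 was at least 43.6-fold lower in KO compressed than in WT compressed cells and at least 44.4-fold lower in KO control than in WT control cells. Its edgeR adjusted p was 0.00204 between compressed groups and 0.00598 between controls, where it was 0.0885 without KO control replicate 1 and 0.0980 without KO control replicate 2. HNF4A stood at 20.01, 22.7 and 27.2 CPM in KO compressed and 22.4 and 15.3 CPM in KO control cells, against 10.1, 12.6 and 8.88 CPM in WT compressed and 8.43, 12.1 and 10.4 CPM in WT control cells. All KO libraries were above all WT libraries. Such a separation was found for 16.9% of all genes tested between controls and for 7.92% between compressed groups.

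HNF4A was called between compressed groups (log2 fold change 1.14 ± 0.24, edgeR adjusted p 0.0447) and not between controls (0.86 ± 0.26, 0.34). That call held in 3 of 11 fits without a library. It was lost without WT control replicate 3, any 1 of the WT compressed libraries, either KO control library, and KO compressed replicates 1 and 3, with adjusted p-values of 0.0633 to 0.209. Without the 2 libraries that lay apart it was 0.0898. The call was also lost by library size alone (0.0691), in limma on log2(FPKM + 1) and log2(FPKM + 0.1) (0.113 and 0.120) and in a fit of the 2 groups alone (0.0826). The median log2 fold change of the 34 regulators was 0.11 between compressed groups and -0.05 between controls.

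The table lists 14 further claudin genes. CLDN11, CLDN14, CLDN17, CLDN18, CLDN20, CLDN24 and CLDN25 had 0 reads in all 11 libraries. CLDN9, CLDN19, CLDN22 and CLDN23 had at most 12 reads in a library and were not tested. CLDN6, CLDN15 and CLDN34 were tested and not called, and the highest FPKM of any of the 14 was 10.6, for CLDN34. CLDN19, the partner of CLDN16 in the thick ascending limb, had 3 reads over the WT control group, 1 over the KO compressed group and 0 in the other groups.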

How the data were processed

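The authors deposited 2 tables over 11 libraries, one of unnormalized counts and one of FPKM. Reads were handled with HISAT2 2.0.5, CASAVA and FastQC on genome build CanFam3.1, per the submitters' processing notes. No source used here gives the counter, the annotation release or the strand setting. The deposited FPKM equal the counts divided by gene length in kb and by an effective library size, in units of 1000000, of 0.964 to 1.049 times the count total.

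Counts were tested with edgeR 4.0.16 in R 4.3.3. Genes were kept by filterByExpr over 4 groups (13560 genes), scaled by TMM and fitted in 1 quasi-likelihood model of 4 groups with 7 residual degrees of freedom. All tests are two-sided, p-values were adjusted over all genes tested by Benjamini-Hochberg with a threshold of 0.05, and intervals are 95%. Single values per library were tested by exact permutation. Correlations between claudins used log2 CPM and 100000 permutations of the 11 libraries, made across groups. Intervals of fold changes come from the fit and include the scatter between libraries, while the floor of 3 counts covers counting error alone. No 2 replicates agreed within sampling noise. The test was checked on simulated counts.

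Named genes were all members, LMNA, other listed claudins, up to 4 called genes per list and comparison, and the 2 nearest by correlation with a mean of at least 2 CPM. Members and lists were chosen with earlier results of these data known. Alternatives were RLE scaling or library size alone in place of TMM, DESeq2 1.42.0, no filter or one of 1 CPM in 3 libraries, limma 3.58.1 on log2(FPKM + 1) and log2(FPKM + 0.1), the 2 groups alone, a replicate block and leaving out each library. Fits without 2 libraries that lay apart, and with a loess correction for gene density within 1 Mb, were added after seeing the data. Sequences were not used here.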

Additional observations from a re-analysis of the deposited data

How the results depend on the processing

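CLDN2 between compressed groups kept its call in all alternatives run, and between controls in all but limma on log2(FPKM + 0.1) (adjusted p 0.0708) and the fits without either KO control library. CLDN1 and CLDN16 lost their calls for compression in WT cells in both limma fits (adjusted p 0.0540 to 0.0591) and the replicate block (0.111). The block also ended the calls of SNAI1, SNAI2, EPHA2, ESRP2 and LNX1 (each 0.111), EPCAM (0.113) and HNF4A (0.137). Claudins called for compression in WT cells were then 0 instead of 2, and 0 to 3 without 1 library. Between controls they were 0 instead of 1 in limma with 0.1, and 0 to 1 without 1 library.

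Genes called for compression in WT cells were 848, against 2558 in DESeq2, 1754 with no filter, 0 and 1 in limma with 1 and 0.1, 2069 in the 2 groups alone, 512 with the gene density correction, 0 with the replicate block, and 0 to 3066 without 1 library. For compression in KO cells they were 0, against 1 in DESeq2 and 1 in limma with 1. Between controls they were 46, against 127 in DESeq2, 90 with no filter, 16 and 8 in limma, 15 with the block, 111 without the 2 libraries that lay apart, and 6 to 106 without 1 library. Between compressed groups they were 107, against 371 in DESeq2, 201 with no filter, 59 and 50 in limma, 64 in the 2 groups alone, 53 with the block, and 39 to 349 without 1 library. For the interaction they were 0 to 1 without 1 library.

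Reversals concerned differences that were not called. The summed level for compression in WT cells was -0.36 on the log2 scale per length and 0.0496 in CPM. Without 1 library it ran from -0.18 to 0.22 between controls, -0.075 to 0.31 between compressed groups and -0.046 to 0.17 over both treatments. With the gene density correction CLDN7 was at 0.11 for compression in WT cells, 0.064 between controls, -0.12 between compressed groups and -0.18 for the interaction. CLDN3 between controls was at -0.0098 in DESeq2 and -0.010 with RLE scaling. CLDN1 between compressed groups was at -0.00019 by library size alone and -0.096 without the 2 libraries, where CLDN2 for compression in KO cells was at -0.086. Without 1 library, log2 fold changes ran from -0.11 to 0.27 for CLDN2 and -0.51 to 0.040 for CLDN12 for compression in KO cells. Between controls they ran from -0.24 to 0.30 for CLDN3, -0.079 to 0.29 for CLDN4, -0.29 to 0.16 for CLDN7 and -0.071 to 0.16 for CLDN12. Between compressed groups they ran from -0.16 to 0.12 for CLDN1, -0.23 to 0.71 for CLDN3 and -0.10 to 0.27 for CLDN7. For the interaction they ran from -0.35 to 0.13 for CLDN2, -0.24 to 0.71 for CLDN3 and -0.10 to 0.34 for CLDN7. The causes were not tested.

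Same-numbered libraries correlated at -0.349 to 0.201 in their deviations from group means, so the numbers are not taken as pairs. A fit without 1 KO control library leaves 1 sample there, which is assumed to vary like the other groups.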
